A study of Caenorhabditis elegans with 2 samples.

Results

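The nuclear hormone receptor genes of Caenorhabditis elegans were examined for ChIP-seq peaks of GFP-tagged F37B4.10 at their promoters. Members were the protein-coding genes whose symbols begin with nhr-, together with daf-12, unc-55, sex-1, odr-7 and fax-1, which gave 274 of the 19973 protein-coding genes of the nuclear chromosomes. Of these, 15 were listed as conserved receptors with clear counterparts outside nematodes, from textbook knowledge. All remaining members are called expanded, 166 of them on chromosome V and 93 on the other chromosomes. No phylogeny was made, so the expanded sets are a remainder and can hold receptors of other descent. The study holds 1 group, 2 biological replicates of whole young adults of strain OP374, aged 61 h. Their larvae had been synchronised by bleaching and starvation at the L1 stage. These worms carry the transgene wgIs374, in which F37B4.10 is fused to a TY1, EGFP and 3xFLAG tag beside an unc-119(+) rescue marker, in an unc-119(tm4063) background. Chromatin was sheared by sonication to 200 to 800 bp and precipitated with an anti-GFP antibody. The promoter that drives the fusion is not stated in the labels, the signal is summed over all tissues of the worm, and no second condition or untagged strain was analysed here.

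Nuclear hormone receptors are transcription factors that join a zinc finger DNA-binding domain to a pocket that can bind small lipophilic molecules such as steroids and fatty acids. Nematodes carry an unusually large family. A small group, including DAF-12 and NHR-25, has counterparts in insects and vertebrates and controls moulting, developmental timing and cell fate, while most of the remainder descends from an ancestor resembling HNF4 and is concentrated on chromosome V. Members of the expansion such as NHR-49 regulate fat metabolism and stress responses.

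For each receptor the strongest candidate peak was taken whose summit lay between 1000 bp upstream and 200 bp downstream of an annotated start. Its signal is the authors' own value per peak, on a scale that is not stated, in the ranked list made from both replicates together. The irreproducible discovery rate, IDR, is the authors' measure of how poorly a peak's rank repeats between inputs, and lower values mark more reproducible peaks. A peak in the authors' conservative list, which holds 843 peaks with an IDR of at most 0.01, lay in the promoter of 6 receptors, nhr-141, nhr-40, nhr-66, nhr-255, nhr-46 and nhr-68. The 101 bp centred on each of those 6 summits are shown because they are the receptor promoter positions that passed the authors' limit. All are plus-strand reference sequence of WBcel235 (ce11) from RefSeq. Capitals mark copies, on either strand, of any of 5 short motifs searched. These were the nuclear receptor half-site AGGTCA, the repeated unit CTACAGTA, the telomere unit TTAGGC, the E-box CACGTG and the GC-only GCGCGC.
nhr-141: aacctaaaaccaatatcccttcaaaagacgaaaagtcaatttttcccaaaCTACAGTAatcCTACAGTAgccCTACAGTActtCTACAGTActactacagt
nhr-40: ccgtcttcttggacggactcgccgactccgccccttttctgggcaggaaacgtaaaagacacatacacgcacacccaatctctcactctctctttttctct
nhr-66: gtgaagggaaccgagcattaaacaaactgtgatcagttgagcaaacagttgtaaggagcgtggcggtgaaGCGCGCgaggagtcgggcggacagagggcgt
nhr-255: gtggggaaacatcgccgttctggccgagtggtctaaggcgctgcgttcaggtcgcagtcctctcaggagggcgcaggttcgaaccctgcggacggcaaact
nhr-46: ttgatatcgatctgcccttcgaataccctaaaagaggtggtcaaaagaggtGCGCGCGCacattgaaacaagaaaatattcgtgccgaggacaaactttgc
nhr-68: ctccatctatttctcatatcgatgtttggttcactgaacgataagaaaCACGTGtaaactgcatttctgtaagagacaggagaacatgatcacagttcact

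The 6 sequences had little in common in these letters. The nhr-141 window, at chrV:7443640-7443740, held 4 closely spaced copies of CTACAGTA and was wholly soft-masked as repeat sequence in the reference. In the nhr-255 window, at chrX:15742037-15742137, the summit lay on the tRNA gene WBGene00014626, and the GC content was 63.4%. The nhr-66 window at chrIV:8229702-8229802 held 1 copy of GCGCGC, and the nhr-46 window at chrIV:5750034-5750134 held 2 overlapping copies. The nhr-68 window at chrV:11572951-11573051 held 1 copy of CACGTG, an E-box of the kind bound by many basic helix-loop-helix factors. The nhr-40 window at chrX:2598911-2599011 held none of the 5 motifs.

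Windows of 3 further receptors are shown for contrast. Those of nhr-41 (chrIV:1388070-1388170) and nhr-48 (chrX:15707646-15707746) belong to the conserved receptors of highest signal, and that of nhr-121 (chrIII:2455385-2455485) held 6 copies of TTAGGC, the unit of the worm telomere repeat, far from the chromosome end.
nhr-41: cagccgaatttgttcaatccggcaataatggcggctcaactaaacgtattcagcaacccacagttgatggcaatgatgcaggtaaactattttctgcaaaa
nhr-48: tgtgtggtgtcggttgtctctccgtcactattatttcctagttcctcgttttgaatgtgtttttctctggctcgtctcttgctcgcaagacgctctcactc
nhr-121: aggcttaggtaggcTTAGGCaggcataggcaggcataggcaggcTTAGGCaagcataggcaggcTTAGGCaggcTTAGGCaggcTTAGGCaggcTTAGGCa

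Motif shares among receptors lay close to those of all promoters for most letters. Within 50 bp of the strongest summits, AGGTCA, the half-site that many nuclear receptors bind, occurred at 6 of 218 receptor positions (2.75%), against 3.06% of 14922 positions of all protein-coding genes. CTACAGTA occurred at 4 receptor positions (1.83%), against 1.23% of all positions. TTAGGC occurred at 5 (2.29%), against 2.96%. CACGTG occurred at 8 (3.67%), against 2.38%. These shares differ by few positions each. For GCGCGC the share was 1.83% at the receptors and 1.83% at all positions. Among the 843 conservative peaks, which are not limited to promoters, 6.17% held GCGCGC and 4.86% TTAGGC. The shares there were 3.08% for AGGTCA, 1.30% for CTACAGTA and 3.08% for CACGTG. A match is a description of these letters and no evidence of binding by a particular factor.

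As a family, the receptors resembled the average gene. A candidate peak lay in the promoter of 221 of the 274 receptors (80.7%), and 81.7% of all protein-coding genes had one. Their median strongest signal was 31.2 (quartiles 21.3 and 41.6), against 31.2 for all genes with a candidate peak (quartiles 22.7 and 41.02). Both values lie near the background. The top 10% by signal included 21 of the 221 (9.50%), where the background is 10%. Percentiles and the top 10% are taken throughout over the 16321 protein-coding genes with a candidate peak. A promoter candidate peak with an IDR of at most 0.05 was present at 20 of 274 receptors (7.30%), against 6.69% of all genes. The 6 receptors of the conservative list made up 2.19% (exact 95% interval 0.808 to 4.71%), against 1.72% of all genes. Here and below, intervals cover counting error only, and genes of the family are not replicates of one another.

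The conserved receptors stood higher than the chromosome V expansion by their median, although the ranges overlapped. Of the 15 conserved receptors 13 had a candidate peak, with a median strongest signal of 43.2 and a range of 26.8 to 63.2. Among the 166 expanded receptors on chromosome V 135 had one (81.3%), with a median of 29.3 and a range of 4.68 to 122, and 80.9% of all genes of that chromosome had one. Among the 93 expanded receptors elsewhere 73 had one (78.5%), with a median of 31.3 and a range of 6.15 to 78.6. The spread was widest on chromosome V. The middle gene of the conserved set stood at percentile 79.0 of genes with a candidate peak, that of the chromosome V set at percentile 44.2, and that of the expanded set elsewhere at percentile 50.1. That conserved gene was nhr-8, with an IDR of 0.325 and a summit nearest to the start of another gene. With only peaks nearest to the gene's own start, the medians were 42.8 for 12 conserved receptors and 29.2 for 130 on chromosome V. The other protein-coding genes of chromosome V had a median of 29.6, close to that of its expanded receptors. The highest single value of the family nevertheless belonged to the chromosome V set. No test was made, because receptors of 1 family are not replicates of a condition and the study has 1 group.

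**Figure D1:**
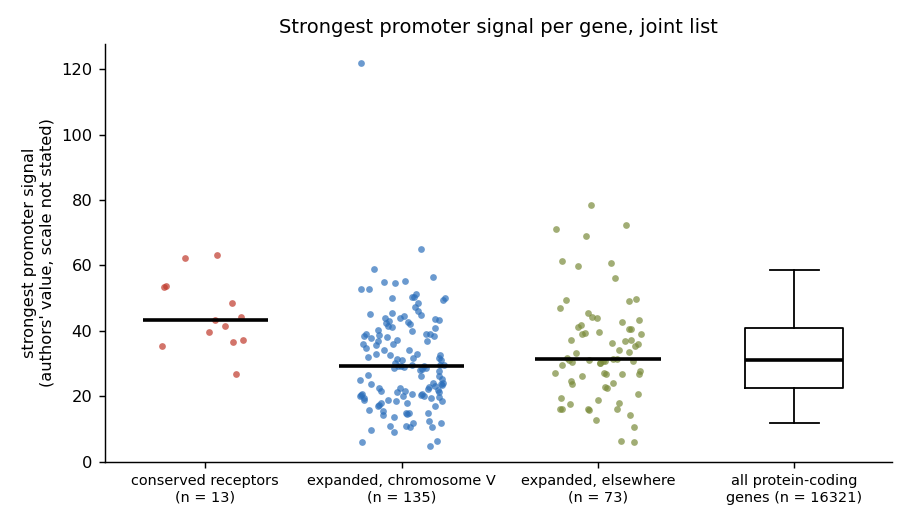
Strongest promoter signal (vertical axis, authors' value, scale not stated) of each receptor with a candidate peak, as 1 point per gene with a black line at the median, for conserved receptors, expanded receptors on chromosome V and expanded receptors elsewhere, beside a box for all protein-coding genes (quartiles and median, whiskers at percentiles 5 and 95). The conserved points lie between 26.8 and 63.2 around a median of 43.2, and the chromosome V points spread from 4.68 to 122 around 29.3.

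By counts past a limit the picture was less clear. In the top 10% of genes with a candidate peak were 4 of 13 conserved receptors (30.8%, exact 95% interval 9.09 to 61.4%), 9 of 135 on chromosome V (6.67%, 3.09 to 12.3%) and 8 of 73 elsewhere (11.0%, 4.85 to 20.5%). The share over all genes of chromosome V with a candidate peak was 8.59%. A candidate peak with an IDR of at most 0.05 was present at 3 of 15 conserved receptors (20.0%, 4.33 to 48.1%), 8 of 166 on chromosome V (4.82%, 2.10 to 9.27%) and 9 of 93 elsewhere (9.68%, 4.52 to 17.6%). Over all genes of chromosome V that share was 5.61%. The conservative list held 0 of the 15 conserved receptors, which allows a share of up to 21.8%, against 2 of 166 on chromosome V (1.20%) and 4 of 93 elsewhere (4.30%). The intervals of the 3 sets overlap at each of these limits.

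Several other properties moved with the same split. Conserved receptors had 2.87 annotated starts and 2.87 promoter candidate peaks per gene on average, against 1.44 starts and 1.61 candidate peaks on chromosome V and 1.47 and 1.70 over all genes. Expanded receptors elsewhere had 1.77 starts and 1.95 candidate peaks. Strongest signal and number of candidate peaks were correlated across the 221 receptors (Spearman's rho 0.390) and across all genes (0.296), a description over genes that share 1 pair of libraries. Among genes with exactly 2 candidate peaks the medians were 40.3 for 6 conserved receptors, 32.1 for 45 on chromosome V and 31.7 for all genes. The 30 expanded receptors elsewhere in that class had 30.7. With 3 or more they were 44.95 for 6 conserved receptors, 36.03 for 37 on chromosome V and 36.4 for all genes. The 24 expanded receptors elsewhere in that class had 42.2, close to the conserved value. The conserved set had the higher median within each of these classes, from 6 genes each. The class of 3 or more does not hold the number of candidate peaks equal, since nhr-41 and daf-12 had 7 each. The part of peak number in the difference between the sets was not tested. Among genes with 1 annotated start, the medians were 35.9 for 4 conserved receptors, 29.3 for 89 on chromosome V and 29.7 for all genes.

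**Figure D2:**
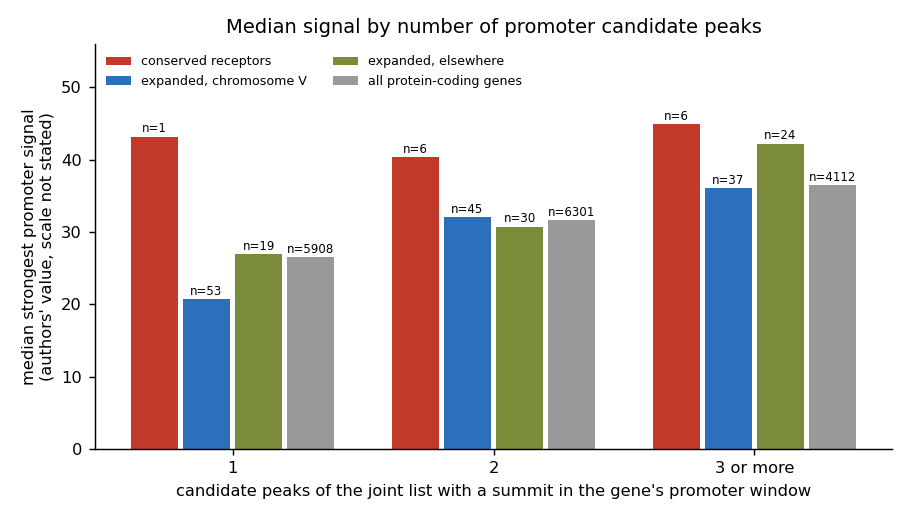
Median strongest promoter signal (bars, authors' value, scale not stated) of genes with 1, 2, or 3 or more candidate peaks in the promoter, for conserved receptors, expanded receptors on chromosome V, expanded receptors elsewhere and all protein-coding genes, with the number of genes above each bar. Medians for chromosome V receptors are 20.7, 32.1 and 36.03, and those for all genes 26.5, 31.7 and 36.4.

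Base composition differed as well. The median GC content within 50 bp of the strongest summit was 48.5% at conserved receptors, 37.6% on chromosome V and 40.6% at expanded receptors elsewhere, against 39.6% over all genes. Signal and GC content were correlated across the 218 distinct receptor positions (Spearman's rho 0.403) and across all 14922 positions (0.366), as a description over positions that share 1 pair of libraries. A summit in soft-masked sequence was found at 5 of 13 conserved receptors (38.5%), 34 of 135 on chromosome V (25.2%) and 14 of 73 elsewhere (19.2%). Over all genes the share was 25.05%. The chromosome V share lies near that background, and the conserved share rests on 5 genes. The part of base composition in the difference between the sets was not tested.

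**Figure D3:**
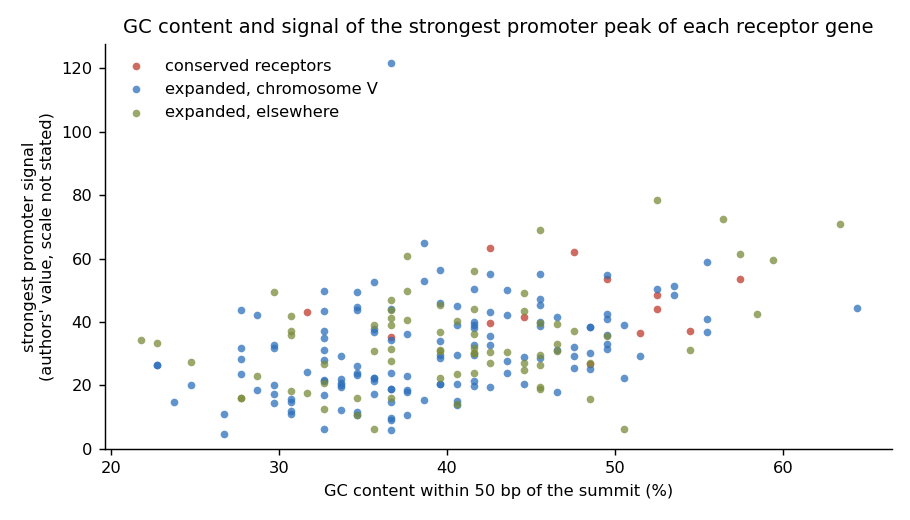
GC content within 50 bp of the summit (horizontal axis, %) and strongest promoter signal (vertical axis, authors' value, scale not stated), 1 point per receptor, coloured by set. Signal is higher at GC-rich summits (Spearman's rho 0.403). The conserved receptors spread from 31.7% to 57.4% GC around a median of 48.5%, while nhr-141 stands apart at 36.6% GC and a signal of 122.

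The strongest receptor was nhr-141 (WBGene00017787), a member of the chromosome V expansion. Its candidate peak at chrV:7443552-7443827 had a joint signal of 122 and an IDR of 0.000321, and its summit lay between genes, 971 bp upstream of the start and so near the edge of the promoter window. The replicates' own lists gave 50.3 in replicate 1 and 71.6 in replicate 2 at that position, the highest value of any receptor in each list. By joint signal nhr-141 stood at percentile 99.8 of genes with a candidate peak. It was the only receptor with a promoter peak in a thresholded list of a single replicate, that of replicate 2 (99 peaks, with 0.235% of all genes), while the list of replicate 1 (81 peaks, with 0.215% of all genes) held no receptor.

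The next 3 positions lay on other chromosomes. For nhr-40 (WBGene00003630), which acts in embryonic development and body wall muscle, the candidate peak at chrX:2598823-2599098 had a joint signal of 78.6 and an IDR of 0.00218, with 42.5 in replicate 1 and 39.1 in replicate 2. The summit lay in an intron of the gene, 447 bp upstream of an internal start. For nhr-66 (WBGene00003656), a partner of NHR-49 in lipid metabolism, the candidate peak at chrIV:8229614-8229889 had 72.5 and an IDR of 0.00847, with 35.8 in replicate 1 and 33.1 in replicate 2. Its summit lay in 5' UTR sequence 175 bp upstream of an internal start. The nhr-255 peak (WBGene00014068) at chrX:15741949-15742224 had 71.0 and an IDR of 0.00802, with 29.3 in replicate 1 and 39.8 in replicate 2, 523 bp upstream of the start and on the tRNA gene named above. Each of these receptors ranked above percentile 98 of genes with a candidate peak by the joint list, and in both replicates the position was found.

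The 2 remaining receptors of the conservative list were nhr-46 and nhr-68, of which nhr-68 sat just inside its limit. At nhr-46 (WBGene00003636) the candidate peak chrIV:5749946-5750221 had a signal of 68.9 and an IDR of 0.00826, with 28.5 in replicate 1 and 41.1 in replicate 2, and its summit lay in an intron 194 bp upstream of an internal start. At nhr-68 (WBGene00003658), which with nhr-10 switches on the propionate breakdown shunt, chrV:11572863-11573138 had 65.1 and an IDR of 0.00990, with 31.6 in replicate 1 and 35.2 in replicate 2. The nhr-68 summit lay between genes, 439 bp upstream of its start and 11 bp from that of the neighbour H12C20.7, so the peak cannot be given to either gene. In the authors' second joint thresholded list, which covered 1.88% of all genes, nhr-68 was missing and the other 5 receptors were present. The receptor just outside the limit was nhr-2, an early embryonic receptor, with 60.7 and an IDR of 0.0173. With 1 start per gene, the peaks of nhr-40, nhr-66 and nhr-46 no longer counted, because they lie inside the gene.

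**Figure D4:**
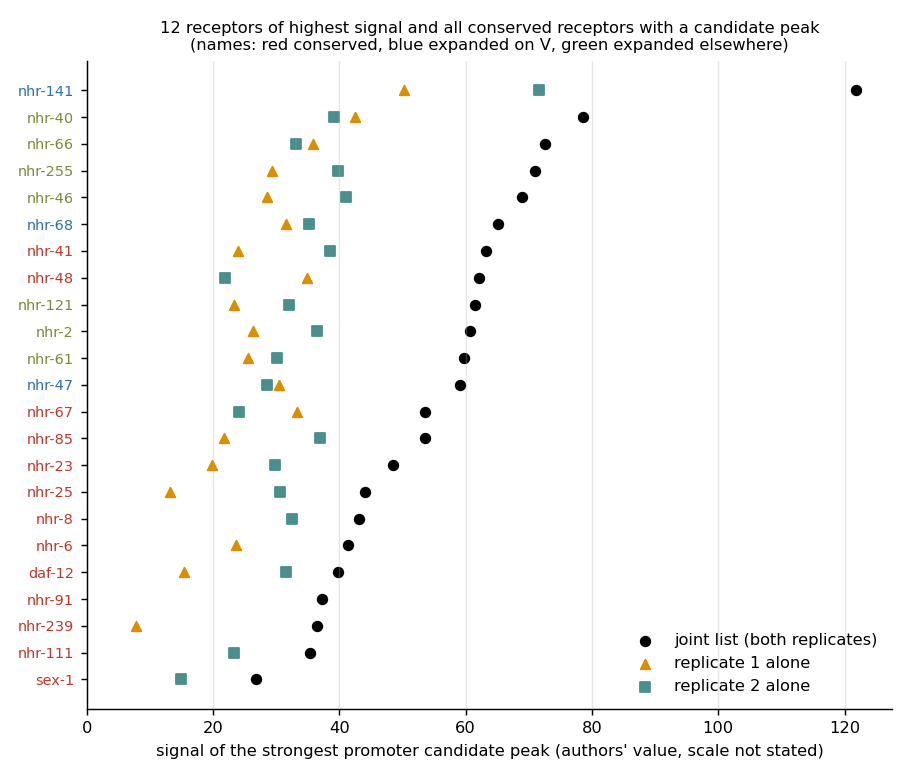
Signal (horizontal axis, authors' value, scale not stated) at the strongest promoter candidate peak of the 12 receptors of highest signal and of all conserved receptors with a candidate peak, in the joint list (circles) and at the same position in the lists of replicate 1 (triangles) and replicate 2 (squares). A missing symbol means that the replicate's list had no summit within 100 bp, as for nhr-91 in both replicates. For nhr-141 the 3 values are 122, 50.3 and 71.6.

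Among the conserved receptors, the highest was nhr-41, a counterpart of the insect DHR78 and vertebrate TR2 and TR4 receptors. It had a joint signal of 63.2 and an IDR of 0.0216, with 23.9 in replicate 1 and 38.5 in replicate 2, at chrIV:1387982-1388257, where the summit lay in coding sequence 23 bp downstream of a start and within 200 bp of the tRNA gene WBGene00023202. A relative of DAF-12, nhr-48 had 62.2 and an IDR of 0.0550, with 34.8 in replicate 1 and 21.9 in replicate 2, at chrX:15707558-15707833. The counterpart of the insect tailless gene, nhr-67, which acts in anchor cell invasion, had 53.6 and an IDR of 0.0400, with 33.3 in replicate 1 and 24.1 in replicate 2, 70 bp upstream of a start. The replicates thus ordered these 3 receptors differently, with nhr-41 lowest in replicate 1 and highest in replicate 2.

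Receptors of moulting and developmental timing followed. The E75 and Rev-erb counterpart nhr-85 had 53.5 and an IDR of 0.0336, with 21.8 in replicate 1 and 36.9 in replicate 2. For nhr-23, the counterpart of DHR3 and ROR that is needed for moulting, the values were 48.5 in the joint list, 19.8 in replicate 1 and 29.9 in replicate 2. The Ftz-F1 counterpart nhr-25, also a moulting and epidermal factor, had 44.1 in the joint list, 13.1 in replicate 1 and 30.6 in replicate 2. All 3 were higher in replicate 2. The IDR was 0.0699 at nhr-23 and 0.184 at nhr-25, both above the IDR limits of the counts given earlier. The dafachronic acid receptor daf-12, which governs dauer formation, had 39.7 in the joint list, with an IDR of 0.125 that also exceeds those limits. Its values were 15.4 in replicate 1 and 31.6 in replicate 2, and its promoters held 7 candidate peaks.

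The strongest positions of the other conserved receptors with a candidate peak were met in at most 1 replicate. At nhr-8, a DHR96 relative of sterol and xenobiotic responses, the joint signal was 43.2 and replicate 2 alone held the position, at 32.5. That summit was nearest to the start of mrps-24 and also lay in the promoters of emc-6 and mrpl-1, so it cannot be given to 1 gene. At nhr-6, the NR4A counterpart of the spermatheca, it was 41.4, with 23.6 in replicate 1 alone. The joint values of nhr-91 (37.3), nhr-239 (36.5), nhr-111 (35.4) and the X chromosome counting factor sex-1 (26.8) completed the set. The IDR was 0.325 at nhr-8, 0.134 at nhr-6, 0.200 at nhr-91, 0.385 at nhr-239, 0.147 at nhr-111 and 0.298 at sex-1. All of these exceed the IDR limits of the counts given earlier. For nhr-91 neither replicate's own list held the position, for nhr-239 replicate 1 alone gave 7.79, and replicate 2 alone gave 23.3 for nhr-111 and 14.9 for sex-1. The neuronal identity genes fax-1 and unc-55 had no promoter candidate peak in the joint list. In the authors' second joint ranked list they had values of 12.2 for fax-1 and 5.53 for unc-55, each with an IDR of 0.640.

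In the expansion on chromosome V, the 10 receptors next in rank after nhr-141 and nhr-68 had joint signals between 50.5 and 59.1. The first was nhr-47, with 59.1 and an IDR of 0.0251, 30.4 in replicate 1 and 28.6 in replicate 2, at a summit 22 bp upstream of its start that also lay in the promoter of dnj-19. For nhr-161 the values were 56.4 in the joint list, 19.9 in replicate 1 and 37.4 in replicate 2, and for nhr-52 they were 55.1, 24.3 and 33.1. The signals of nhr-155 (55.2), nhr-275 (54.7), nhr-256 (52.9), nhr-98 (52.7), nhr-202 (51.3), nhr-193 (50.5) and nhr-130 (50.5) followed closely on one another. Of these, nhr-155 and nhr-202 were not met in replicate 1, and the nhr-193 summit lay near a tRNA gene. The IDR exceeded 0.05 at nhr-155 (0.0635), nhr-256 (0.0623), nhr-202 (0.0593), nhr-193 (0.0541) and nhr-130 (0.0595). It was below 0.05 at nhr-161 (0.0460), nhr-52 (0.0298), nhr-275 (0.0366) and nhr-98 (0.0483).

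Outside chromosome V, the expanded receptors below nhr-46 were closely spaced. At nhr-121 the joint signal was 61.5 with an IDR of 0.0373, 23.4 in replicate 1 and 32.1 in replicate 2, at the TTAGGC-rich window shown above, 628 bp upstream of the start. At nhr-61 it was 59.7 with an IDR of 0.0331, 25.6 in replicate 1 and 30.2 in replicate 2. The nhr-61 summit lay in coding sequence, 1 bp downstream of an internal start. At nhr-174 the joint signal was 56.1 with an IDR of 0.0350. The median of the expanded receptors with a candidate peak ran from 29.3 on chromosome V to 33.9 on chromosome IV, a narrower span than the quartiles of any set.

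At the low end, nhr-63 (4.68), nhr-230 (5.99), nhr-214 (6.15), nhr-277 (6.20) and nhr-189 (6.28) had the weakest strongest peaks, and none of the 5 positions was met in a replicate's own list. No candidate peak lay in the promoter of 53 receptors, 2 of them conserved, 31 on chromosome V and 20 elsewhere. They included odr-7, which specifies the AWA olfactory neuron, and nhr-4, nhr-9, nhr-10 and nhr-69. A missing candidate peak says only that the list has no summit there.

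The strongest position was met in both replicates' own lists, by a summit within 100 bp, for 71 of 221 receptors (32.1%), against 29.5% of all genes with a candidate peak. The shares were 7 of 13 conserved receptors (53.8%, exact 95% interval 25.1 to 80.8%), 40 of 135 on chromosome V (29.6%, 22.1 to 38.1%) and 24 of 73 elsewhere (32.9%, 22.3 to 44.9%). Replicate 1 held 108 of the 221, replicate 2 held 134, and 50 were in neither, with a joint signal of at most 37.9. Across the 71 receptors met in both, the signals of the replicates were weakly correlated (Spearman's rho 0.301), as they were over all 4319 positions met in both (0.248). Over each whole list the median signal was 16.01 in replicate 1 and 18.9 in replicate 2.

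When each replicate's own list was used in place of the joint list, the conserved receptors had medians of 19.3 in replicate 1 (12 genes) and 24.1 in replicate 2 (13 genes). The chromosome V receptors had 17.9 in replicate 1 (81 genes) and 20.6 in replicate 2 (101 genes). The difference of the medians, conserved minus chromosome V, was 1.40 in replicate 1 and 3.50 in replicate 2 (SD 1.49, n = 2), against 13.9 in the joint list. Both replicates gave the sign of the joint list, at a smaller size. Between replicates the medians varied by an SD of 3.38 for conserved receptors and 1.90 for chromosome V receptors. Signals of lists made separately need not share a scale.

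Most receptor summits lay outside coding genes and noncoding exons, a class called between genes here. These classes were not counted over all genes, so their shares have no background. Of the 221, 122 were between genes (55.2%, median signal 28.1), 48 in coding sequence (21.7%, median 33.6), 30 in introns (13.6%, median 35.5), 13 in 5' UTRs, 5 in noncoding exons and 3 in 3' UTRs. The summit was within 200 bp of a start at 96 receptors (43.4%), against 36.5% over all genes, and its median distance was 313 bp upstream, against 361 bp upstream over all genes. For 208 receptors (94.1%) the nearest start was the receptor's own, against 82.3% over all genes. In addition, 15 positions also lay in the promoter of a gene outside the family, and 3 positions were each shared by 2 receptors, nhr-259 with nhr-73, nhr-169 with nhr-89 and nhr-152 with nhr-94.

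**Figure D5:**
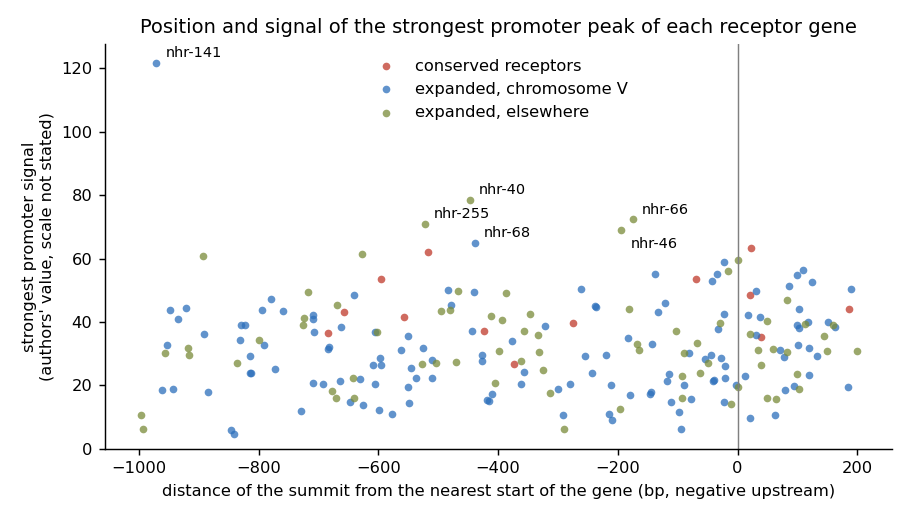
Distance of the strongest promoter summit from the nearest start of the receptor (horizontal axis, bp, negative upstream) and its signal (vertical axis, authors' value, scale not stated), 1 point per receptor, coloured by set, with the 6 receptors of the conservative list named. The named points lie upstream of a start, between 175 and 971 bp, and most of the remaining points stay below a signal of 60 at all distances.

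Along chromosome V, the expanded receptors were placed unlike other genes but had like signals. When the chromosome was divided into 3 equal stretches, the left one held 78 of them (47.0%), against 30.6% of the other coding genes. A candidate peak was present at 67 of them (85.9%), against 84.8% of the other genes, and the medians there were 29.2 for receptors and 30.4 for other genes. In the middle stretch were 41 receptors, of which 26 had a candidate peak (63.4%), against 74.5% of the other genes, with medians of 30.9 and 29.4. The right stretch held 47, of which 42 had one (89.4%), against 84.3% of the other genes, with medians of 28.9 for receptors and 28.9 for other genes. Runs of at least 5 receptors spaced by no more than 10 kb numbered 8 and held 68 of the chromosome's 167 receptors. The largest, chrV:451451-497297, had 12 receptors, 10 of them with a candidate peak, from 10.9 at nhr-131 to 52.7 at nhr-98. In the run at chrV:2210510-2235180 all 9 had one, with a median of 29.6, whereas in that at chrV:6980587-7000651 only nhr-161 (56.4) and nhr-139 (34.8) of 7 did. Receptors of such runs can be near-identical copies, and how the authors treated reads that map to several places is not given in the sources used here.

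Expanded receptors with known roles in metabolism and stress, 17 in a list, had a wide range of signals. A candidate peak was present at 15, where 81.7% of all genes had one. Their median was 37.2 and their range 9.77 to 72.5, against a median of 31.2 over all genes. In the top 10%, where the background is 10%, stood nhr-66 and nhr-68. Both counts lie near those backgrounds. The fat metabolism regulator nhr-49 had 49.1 and an IDR of 0.104, with 32.2 in replicate 1 and no matching summit in replicate 2. The germline nutrition receptor nhr-114 had 48.6, with 18.5 in replicate 1 and 30.9 in replicate 2. At the lower end were nhr-86 with 14.9 and nhr-13 with 9.77, neither met in a replicate's own list. The partner of nhr-68 in the propionate shunt, nhr-10, had no candidate peak.

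Genes that act with the receptors were listed in 3 roles, 18 in all, of which 15 had a candidate peak, with a median of 40.2 and 3 in the top 10%. Over all protein-coding genes 81.7% had a candidate peak, with a median of 31.2, so the count with one was near the background. For the top 10% the background is 10% of genes with a candidate peak, and 15 genes are too few to set the 3 apart from it. Of 6 genes that make or move sterol ligands, 4 had a candidate peak (median 32.1), the highest being daf-9, the cytochrome P450 that makes dafachronic acid, at 45.2. All 6 cofactors and partners had one (median 44.9). The acetyltransferase gene cbp-1 had 122 and an IDR of 0.000289, with 53.0 in replicate 1 and 71.1 in replicate 2. The DAF-12 corepressor din-1 had 63.3, at a summit near a snoRNA gene, and mdt-15, the mediator subunit that works with NHR-49, had 23.3. Of 6 targets, 5 had a candidate peak (median 40.2), and acs-2, an acyl-CoA synthetase gene activated by NHR-49, had 59.4 with an IDR of 0.0302.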

How the data were processed

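Peak lists (ce11) of 2 replicates were used. Per the deposited README texts, the lists come from filtered reads and a control. The control was not analysed here. Aligner, peak caller and depth: not given in the sources used here. The authors deposited ranked lists with a signal per peak and the IDR as a −log10 value, 115634 peaks for both replicates, 58046 for replicate 1 and 63045 for replicate 2. Their deposited thresholded lists carry a score of at least 830, which corresponds to an IDR of 0.01. Both joint ranked lists also hold values per input that name no sample, and these 16 columns were left out.

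Summits were assigned with Python 3.11.15, numpy 2.4.6, pandas 2.3.3 and scipy 1.17.1 to 29314 starts of protein-coding genes (Ensembl release 115, WBcel235, the same sequence as ce11). A gene took the strongest summit in a window reaching 1000 bp before and 200 bp past any of its starts. The assignment was tested on simulated peaks. Shares have exact (Clopper-Pearson) 95% intervals, and no p-value was computed. Figures used matplotlib 3.10.9.

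Members and lists were chosen with earlier results of these data known, and the motifs after seeing the data. Named genes are all conserved receptors, those in a joint thresholded list, the 12 highest on chromosome V and 8 highest elsewhere, the 5 lowest, up to 5 without a candidate peak, those nearest to the IDR limit, and listed genes in the top 10% with nhr-49 and mdt-15. Other names were picked with their values known. Other windows, lists, IDR limits, start choices and single replicates served as alternatives.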

Additional observations from a re-analysis of the deposited data

How the results depend on the processing

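The conserved median exceeded the chromosome V median under every alternative tried. Against 13.9 in the joint list, the difference was 12.2 in the second joint list, 11.1 with a window of 500 bp upstream to 100 bp downstream, 9.37 with 2000 bp upstream, 9.50 with 1 start per gene, 6.08 for the peak nearest to a start and 12.1 relative to each chromosome's median, while it was 14.2 without peaks near tRNA, snRNA or snoRNA genes. Under alternatives chosen after seeing the data it was 10.2 for the mean of all promoter peaks, 9.97 among genes with 2 or more peaks, 6.66 among genes with 1 annotated start and 11.1 without soft-masked summits. With only peaks whose nearest start was the gene's own, also chosen after seeing the data, it was 13.5. From single replicates it ranged from 1.40 to 3.50. The conserved median (43.2) was 33.8 in the narrow window, 38.4 with 1 start, 27.6 for the nearest peak, 31.9 for the mean, 39.7 without soft-masked summits and 19.3 to 24.1 in single replicates. The chromosome V median (29.3) was 22.7 in the narrow window, 36.3 in the wide one, 21.5 for the nearest peak, 21.7 for the mean and 17.9 to 20.6 in single replicates. Receptors with a candidate peak numbered 141 to 174 in single replicates, against 221. The 6 receptors of the conservative list became 3 with 1 start per gene and 0 to 1 in single replicates' thresholded lists. In the narrow window 4 remained, and nhr-141 and nhr-255 dropped out. The 20 receptors with an IDR of at most 0.05 became 13 in the narrow window, 13 with 1 start, 39 at an IDR of at most 0.1, and 1 in either replicate's list. Positions met in both replicates fell to 44 in the narrow window, against 71. The count in the top 10% stayed within 1.5 times its value. The cause of these changes was not tested, beyond the narrower window and fewer starts holding fewer summits. No paired analysis was possible because the study has 1 group. The number of reads is unknown, so no floor on detection can be given, and 13 conserved genes limit the precision of their median.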
